A study of Mus musculus with 10 samples.

Results

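Aminoacyl-tRNA synthetases were followed in beta cells sorted from mouse islets that had been exposed to lipopolysaccharide (LPS). The genes were chosen by name and not by their values: every protein-coding gene whose symbol consists of an amino acid code followed by "ars", with or without the suffix 2, together with Farsa and Farsb, the genes of the subunits of the phenylalanine enzyme. This gave 37 genes among 56748 gene identifiers, 20 of them cytosolic and 17 mitochondrial (suffix 2), and all 37 passed the filter on low counts. Symbols are those of the GENCODE annotation used for matching, in which Wars, Lars and Gars stand for the genes also written Wars1, Lars1 and Gars1.

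The RNA-seq series measured gene counts in beta cells of male NOD mice aged 6 to 8 weeks, a strain with spontaneous autoimmune diabetes. Whole islets were cultured either without addition (untreated, libraries 1 to 5) or with LPS, a bacterial cell wall component sensed by Toll-like receptor 4, at 50 ng/ml for 48 hours (LPS, libraries 6 to 10). The islets were dispersed with trypsin after the culture, and beta cells were collected by flow cytometry. Both groups share strain, sex and age range, and neither carries a genetic change that the labels name. Cells other than beta cells were present with them during the exposure, and the labels do not name the animals behind each library, so p-values measure the spread between these libraries.

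Aminoacyl-tRNA synthetases load each tRNA with its amino acid and so supply every ribosome of the cell. The cytosolic enzymes serve the translation of nuclear genes, which in beta cells includes a heavy load of proinsulin, and several of them are held together in a multisynthetase complex by scaffold proteins. The mitochondrial enzymes are encoded by separate nuclear genes and serve the few proteins made inside mitochondria, except that Gars and Kars each give rise to the enzyme of both compartments. Many cytosolic synthetase genes are known targets of ATF4, the transcription factor of the integrated stress response, and Wars is known as a gene induced by interferon in other cells.

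The DNA letters that ATF4 and its C/EBP partners bind are known as the C/EBP-ATF response element, and its core was searched as TGATGNAA on both strands. Promoter windows of 250 bases before to 50 bases after the start site came from RefSeq (GRCm38.p6) and were at hand for 13 of the 20 cytosolic and 14 of the 17 mitochondrial genes. The core stood in the windows of 5 cytosolic genes, Aars, Gars, Iars, Tars and Yars, or 38.5% of the 13, and in none of the 14 mitochondrial windows. Among all 27025 genes with a window in that table, 4.51% held it. The sites are shown because, of the motifs searched here and below, their core differed most between the compartments. They were selected after the values were seen, and a match is a description of letters, not of binding. For each gene the match nearest to the start site is given as 30 bases with the match in capitals, on the strand on which it reads TGATGNAA, with positions counted from the first transcribed base as 1.
Aars site: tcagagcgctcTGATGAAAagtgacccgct
Gars site: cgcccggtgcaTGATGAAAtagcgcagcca
Iars site: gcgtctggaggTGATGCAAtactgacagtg
Tars site: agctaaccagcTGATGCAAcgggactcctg
Yars site: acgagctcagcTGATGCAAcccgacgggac

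The Aars site lies at chr8:111033840-111033869 on the minus strand (match at 10 to 17). The Gars site lies at chr6:55037960-55037989 on the minus strand (-30 to -23) and the Iars site at chr13:49682126-49682155 on the minus strand (8 to 15). The Tars site lies at chr15:11399655-11399684 on the plus strand (-15 to -8) and the Yars site at chr4:129189895-129189924 on the plus strand (4 to 11). The sites of Aars, Gars, Iars and Tars read in the direction opposite to the gene and that of Yars in the direction of the gene. A STAT site (TTCNNNGAA, the same on both strands) stood in the windows of Aars, Kars and Nars2 and in 9.55% of all genes with a window. The core of the interferon-stimulated response element, searched on both strands, stood in the window of Qars and in 3.99% of all genes, and no window of Wars was in the table.

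Total counts assigned to genes ran from 18465188 to 27379892 per library. The summed CPM (counts relative to the library total, scaled by the trimmed mean of M values, TMM) of 10 beta cell markers ran from 118261 to 137066 in untreated and from 101964 to 134049 in LPS libraries. Of these 10 genes 3 were called lower, or 30%, against 0.928% of all genes tested. Groups did not overlap, lower in LPS, for 3 of them, against 1.87% of all genes tested. Lymphocyte markers summed to 3.61 CPM or less, with Cd3e, Cd3g, Ms4a1 and Ptprc at 0 in all libraries. Macrophage markers summed to 29.2 to 42.1 CPM in untreated and 36.4 to 46.7 CPM in LPS libraries, with Adgre1, Lyz2, C1qb, Itgam and Mrc1 at or near 0. Cd68 was called higher (log2 fold change 0.68), and C1qa, the other macrophage gene tested, had a value of -0.35 and was not called (edgeR adjusted p = 0.213). Alpha cell markers summed to 4879 to 14119 and 4049 to 8815 CPM, delta cell markers to 6084 to 8218 and 4981 to 9082 CPM, pancreatic polypeptide markers to 1582 to 2988 and 954 to 2153 CPM. Acinar markers summed to 209 to 459 and 120 to 620 CPM, ductal markers to 485 to 619 and 559 to 706 CPM, mesenchymal markers to 4.47 to 89.5 and 3.17 to 25.5 CPM. Endothelial markers summed to 1.28 to 26.6 and 1.33 to 4.92 CPM, and all 5 that were tested had an unadjusted p under 0.05 with values below 0 (median log2 fold change -2.48). Of all genes tested 15.3% passed that level in either direction. Kdr of the endothelial and Ppy of the pancreatic polypeptide markers were called lower, and Spp1 of the ductal markers was called higher. The part of these cells in the synthetase values below was not tested.

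Relative to coding length, cytosolic synthetase transcripts were more abundant than mitochondrial ones, apart from Lars2. The mean over the 10 libraries ran from 26.1 CPM per kilobase of coding length for Farsb, the beta subunit of the phenylalanine enzyme, to 240 for Sars, the serine enzyme, with a median of 41.7 over the 20 cytosolic genes. After Sars came Wars (182), which loads tryptophan, Aars (140), which loads alanine, Gars (121), which loads glycine, and Nars (113), which loads asparagine. Of the mitochondrial genes, Lars2, which loads leucine, stood at 141, and the other 16 ran from 3.05 (Pars2, proline) to 25.3 (Cars2, cysteine) with a median of 12.9. Counts of Lars2 followed those of an unnamed gene across the libraries, as described below. What the reads of both share was not tested, so the level of Lars2 is one of counts. Over all libraries the lowest cytosolic mean lay just above the highest mitochondrial one other than Lars2, but in untreated libraries alone Farsb (24.9) lay below Cars2 (25.4). Relative to the length of all annotated exons, Gars (85.1 CPM per kilobase), Wars (76.3) and Sars (75.1) were the highest cytosolic genes, and Lars2 (34.5) again stood above the next mitochondrial gene, Rars2 (12.3). On that scale the compartments overlapped, with Farsa (9.06), the alpha subunit of the phenylalanine enzyme, and Qars (11.7), which loads glutamine, below Rars2.

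**Figure D1:**
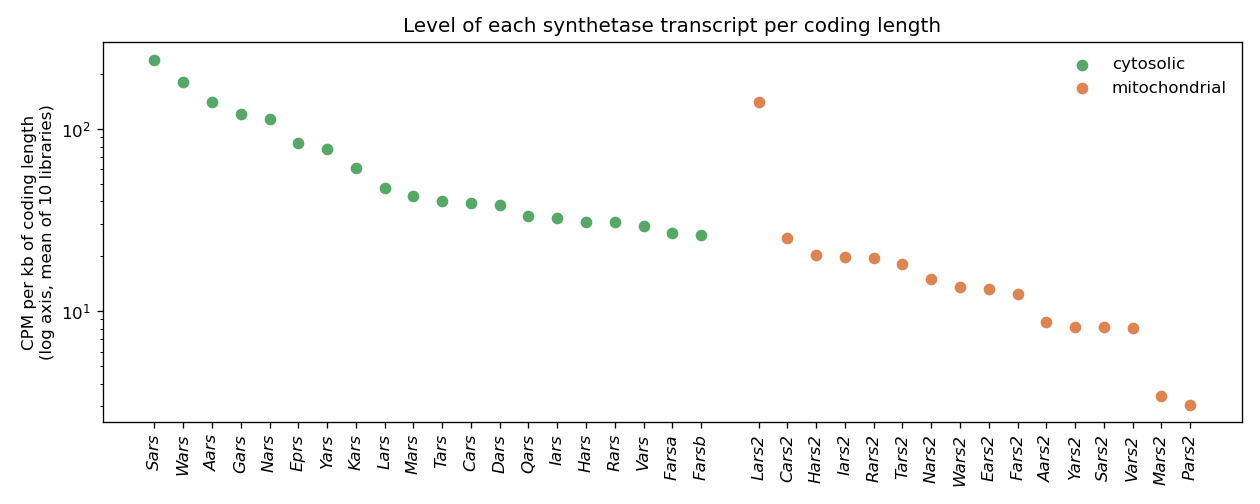
Mean level of each synthetase transcript over the 10 libraries (log axis, CPM per kilobase of coding length), each compartment ordered by level; each point is 1 gene, for the 36 genes reported singly. Lars2, at 141, stands apart from the other mitochondrial genes, which reach 25.3 at most, while cytosolic genes run from 26.1 to 240.

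The comparison of LPS with untreated asked whether the exposure of the islets changed synthetase transcripts in the sorted beta cells. Of the 20 cytosolic genes, 1 was called higher in LPS (Wars; edgeR's quasi-likelihood test, Benjamini-Hochberg adjusted p under 0.05 over the 15942 genes tested) and none lower, where 3.77% of all genes tested were called, 2.84% of them higher and 0.928% lower. A share of 1 in 20 is near that background. The log2 fold changes of the cytosolic genes were small and mostly of one sign: 19 of 20 were above 0, with a median of 0.10 and a range from -0.07 (Dars, aspartate) to 0.26 (Wars). Under the other settings 16 to 19 were above 0, the 16 with the covariate described below. Over all genes tested, 7640 of 15942 were above 0 and the median was -0.01. At an unadjusted p under 0.05 there were 6 cytosolic genes, all higher. Of all genes 15.3% passed in either direction, and 1326 of 15942 passed and were higher.

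**Figure D2:**
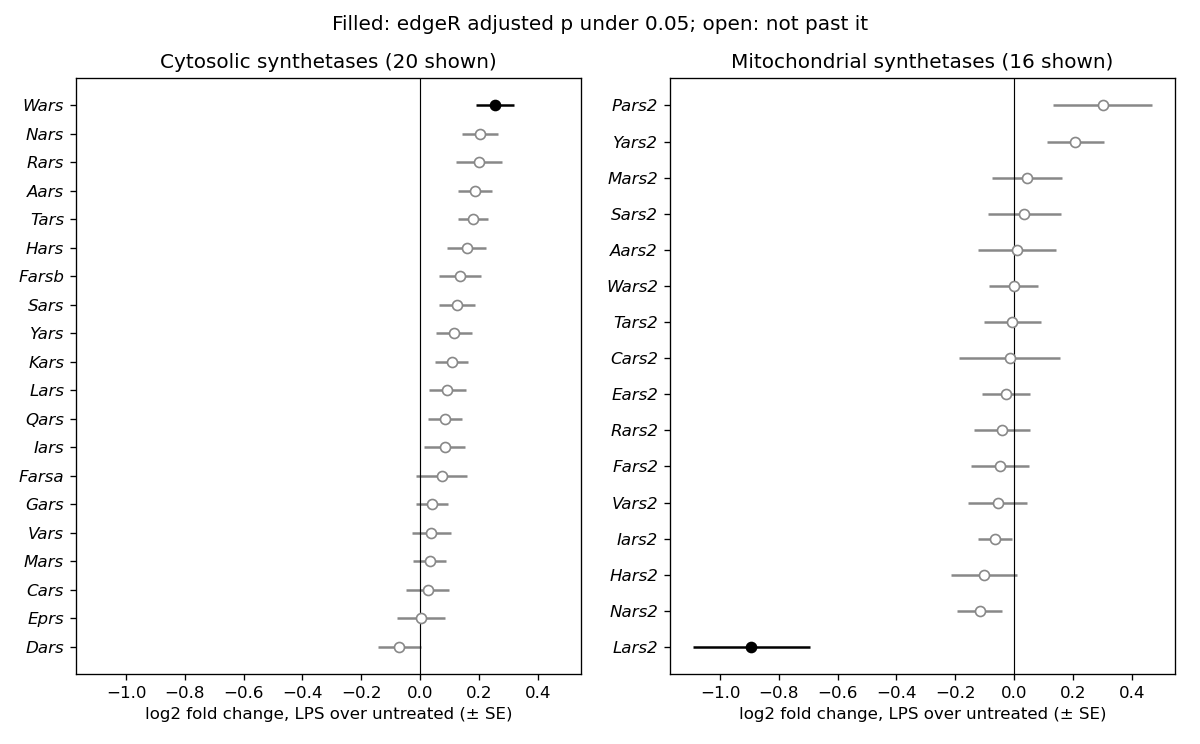
Log2 fold change of each synthetase, LPS over untreated (points, with SE as bars; 5 libraries a group), cytosolic genes at left and mitochondrial genes at right; filled points passed an edgeR adjusted p of 0.05. Of the 20 cytosolic genes 19 lie above 0, of the 16 mitochondrial genes shown 5 do, and Wars (0.26) and Lars2 (-0.89) are the filled points.

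Wars, the tryptophan enzyme, stood at 221, 240, 238, 252 and 249 CPM in untreated libraries 1 to 5 and at 254, 292, 285, 298 and 301 CPM in LPS libraries 6 to 10. Every LPS library lay above every untreated one, with LPS 6 (254) only just above untreated 4 (252). Means were 240 ± 12.2 CPM in untreated and 286 ± 18.9 CPM in LPS libraries (SD, n = 5 each). On the log2 scale Wars rose by 0.26 ± 0.06 (SE), with an edgeR adjusted p of 0.0431. In sorted cells measured in bulk, a change in RNA per cell and a change in the share of cells of a type cannot be told apart. The call was close to the threshold and did not hold under several settings. With single libraries left out it held without untreated 5 (adjusted p = 0.0479) or without LPS 6 (0.0177) and was lost in the other 8 edgeR fits (adjusted p up to 0.117), while the fold change stayed between 0.23 and 0.29.

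Including Wars, 4 cytosolic genes had groups that did not overlap, all higher in LPS, where 3.84% of all genes tested had such a pattern in that direction (5.71% in either and 1.87% lower). Nars, the asparagine enzyme, stood at 179, 180, 175, 177 and 169 CPM in untreated and at 229, 197, 195, 195 and 197 CPM in LPS libraries. The groups did not overlap, and LPS 6 stood apart from the other LPS libraries. The log2 fold change of Nars was 0.20 ± 0.06 (SE), with an edgeR adjusted p of 0.0905. Aars, the alanine enzyme, stood at 381, 385, 374, 382 and 377 CPM in untreated and at 466, 435, 448, 407 and 406 CPM in LPS libraries. All 5 LPS libraries were above the highest untreated one, with 0.19 ± 0.06 (SE) on the log2 scale and an edgeR adjusted p of 0.107. Tars, the threonine enzyme, stood at 80.0, 81.5, 79.5, 86.2 and 82.9 CPM in untreated and at 93.5, 96.3, 89.3, 91.5 and 93.6 CPM in LPS libraries. The log2 fold change of Tars was 0.18 ± 0.05 (SE), with an edgeR adjusted p of 0.0780 and again with no overlap of the groups. None of these 3 passed in edgeR, whereas DESeq2 called Nars, Aars and Tars (adjusted p = 0.0241, 0.0137 and 0.00851) and limma-voom with sample quality weights called Aars and Tars (0.0468 and 0.0363).

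**Figure D3:**
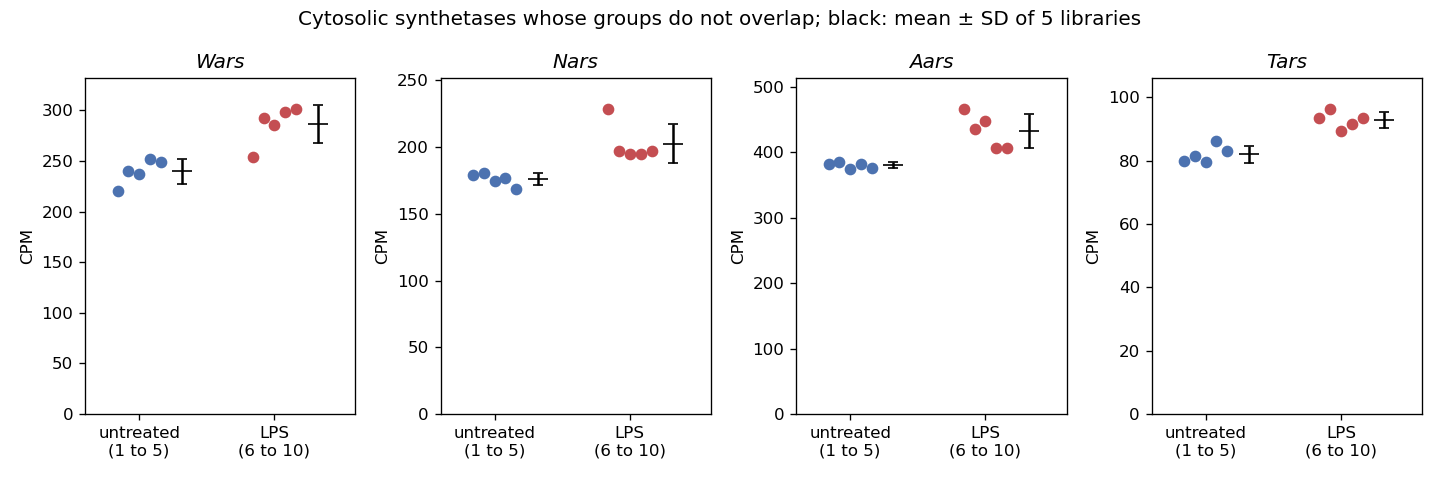
CPM of the 4 cytosolic synthetases whose groups do not overlap, 1 point per library (untreated 1 to 5, LPS 6 to 10), with mean and SD of 5 libraries in black and axes from 0. The LPS libraries lie above all untreated ones in each panel, closest for Wars between LPS 6 (254) and untreated 4 (252), and LPS 6 (229) stands apart for Nars.

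Summed over the 20 cytosolic genes, transcripts made up 2990, 3098, 3034, 3098 and 3036 CPM in untreated and 3335, 3317, 3315, 3216 and 3294 CPM in LPS libraries. The groups did not overlap, and the means of 3051 ± 46.3 and 3296 ± 46.9 CPM (SD, n = 5 each) gave a ratio of 1.08. Over 3 other scalings and with each library left out in turn, that ratio ran from 1.07 to 1.09. The groups stayed apart under the 3 other scalings. With a library left out they could not overlap, since they did not with all libraries. The highest library was an LPS library for 18 of the 20 genes and the lowest an untreated one for 16. These counts were not made over all genes, so no background share stands beside them. Single libraries weighed in several genes at once, with LPS 10 the highest for 7 and untreated 5 the lowest for 7.

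The other cytosolic genes named for their roles gave no call. Sars, the most abundant per coding length, stood at 369, 360, 349, 377 and 393 CPM in untreated and at 411, 379, 383, 398 and 444 CPM in LPS libraries, with overlapping groups (log2 fold change 0.13 ± 0.06 SE; edgeR adjusted p = 0.372). Of the genes that serve both compartments, Kars, which loads lysine, stood at 109, 111, 110, 114 and 105 CPM against 114, 120, 112, 116 and 128 CPM (0.11; adjusted p = 0.387). Gars stood at 254, 267, 262, 269 and 256 CPM against 251, 274, 278, 266 and 277 CPM (0.04; adjusted p = 0.797). LPS 6 was the lowest of all 10 libraries for Gars, while it was the highest for Nars and Aars. Eprs, a fused enzyme that loads glutamate and proline, stood at 381, 392, 393, 383 and 354 CPM against 437, 399, 402, 348 and 321 CPM. Its means were 381 CPM in both groups, with SDs of 15.7 and 46.7, and its log2 fold change of 0.0035 had a 95% interval from -0.18 to 0.19 (edgeR adjusted p = 0.991). LPS 6 was again the highest library for Eprs and LPS 10 the lowest. Dars was the one gene below 0 among the 20 cytosolic genes chosen by name. It stood at 59.8, 55.9, 56.3, 66.7 and 54.7 CPM against 63.0, 57.3, 53.5, 54.0 and 51.8 CPM (edgeR adjusted p = 0.736).

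By known organisation, the 8 cytosolic genes of the multisynthetase complex (Eprs, Iars, Lars, Mars, Qars, Rars, Kars and Dars) had a median log2 fold change of 0.08 with none called, and the 12 outside it had a median of 0.13 with 1 called. In the complex, Rars, which loads arginine, had the highest value (0.20; edgeR adjusted p = 0.224), with 1 of the 8 at an unadjusted p under 0.05, against 5 of the 12 outside. Of all genes tested 15.3% passed that level, so that 1 of 8 is near the background. Hars, which loads histidine, was the remaining gene at that level (0.16; adjusted p = 0.260). Neither Lars (0.09), which loads leucine, nor Iars (0.08), which loads isoleucine, passed. The 9 cytosolic genes of the class I fold had a median of 0.09 and the 10 of class II 0.13, Eprs belonging to both. The 5 genes with the TGATGNAA core had a median of 0.12 and a range from 0.04 to 0.19 with none called in edgeR, and the 8 with a window that lacked it a median of 0.08. The 7 whose promoter was not in the table, Wars among them, had a median of 0.16. These group medians are descriptions of few genes, and their differences were not tested.

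Counting may be imprecise for some members, since the strand setting is not given in the sources used here. By the annotation used for matching, Aars shares 14.3% of its exon length with Exosc6 on the same strand, and Farsb 9.47% with Sgpp2 on the opposite strand. Hars and Hars2 overlap by 195 bases and Mars overlaps by 68 bases with Ddit3, a gene of the integrated stress response. Iars2 shares 22.9% with Rab3gap2 and Fars2 8.72% with Nrn1. Reads from the stretches on opposite strands cannot be assigned to 1 gene without strand, and those shared with Exosc6 not even with it. Wars and Lars2 overlapped no other gene's exons in that annotation. It does not list ENSMUSG00000119584, a gene described below with Lars2, so an overlap with that gene could not be seen.

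Mitochondrial synthetases showed no common direction, and Lars2 was the one gene called. It was called lower, and none was called higher, so that 5.88% of the 17 genes were called, against 3.77% of all genes tested in either direction and 0.928% lower. A single gene of 17 is near that background. The median log2 fold change of the 17 was -0.03, with 5 above 0 and 12 below, and no gene had groups that did not overlap. Without Lars2 the range ran from -0.12 (Nars2, asparagine) to 0.30 (Pars2), and the smallest edgeR adjusted p was 0.322 (Yars2, tyrosine, at 0.21). Only Yars2 and Lars2 of the 17 had an unadjusted p under 0.05, where 15.3% of all genes tested passed. Pars2 was also the lowest in level, with 82 to 164 counts per library. It stood at 4.08, 3.53, 4.31, 3.83 and 5.22 CPM in untreated and at 4.00, 4.77, 4.51, 5.75 and 6.80 CPM in LPS libraries. The groups overlapped, and the log2 fold change of 0.30 ± 0.17 (SE), at an edgeR adjusted p of 0.439, had a 95% interval from -0.09 to 0.69.

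Leaving Lars2 aside, the other 16 mitochondrial transcripts together made up 356 to 428 CPM in untreated and 335 to 400 CPM in LPS libraries, with means of 382 ± 27.3 and 374 ± 27.0 (SD, n = 5 each). The ratio of mitochondrial to cytosolic synthetase CPM was 0.288 ± 0.0515 in untreated and 0.195 ± 0.0196 in LPS libraries, with 0.221 as the lowest untreated and 0.213 as the highest LPS value. Without Lars2 this ratio was 0.125 ± 0.00905 and 0.114 ± 0.00941, and the groups overlapped. Lars2 made up 55.4% of mitochondrial synthetase CPM in untreated and 41.4% in LPS libraries, by counts that followed those of the unnamed gene described below. Spread between libraries was wider than for cytosolic genes: the median coefficient of variation was 11.7% in untreated and 11.1% in LPS libraries over the 17 mitochondrial genes, and 5.38% and 6.41% over the 20 cytosolic ones. Counts per library ran from 82 to 17315 for mitochondrial and from 790 to 12024 for cytosolic genes.

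**Figure D4:**
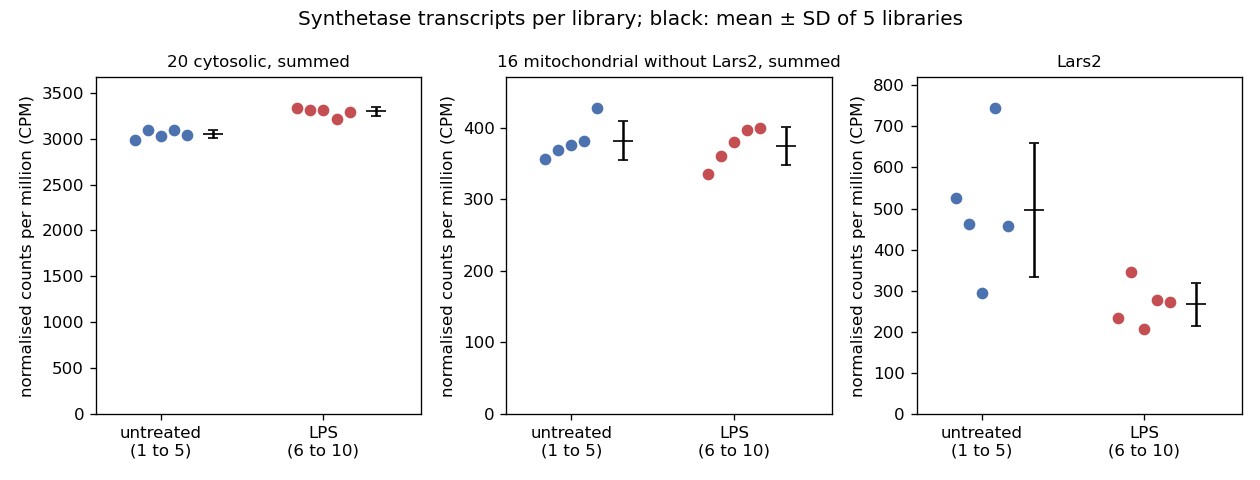
CPM per library (points; untreated 1 to 5, LPS 6 to 10; axes from 0) of the 20 cytosolic synthetases summed, of the 16 mitochondrial synthetases other than Lars2 summed, and of Lars2, with mean and SD in black. The cytosolic sums do not overlap (at most 3098 against at least 3216), the mitochondrial sums do, and Lars2 spreads from 294 to 745 in untreated libraries.

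Lars2 encodes the mitochondrial leucine enzyme. It stood at 526, 463, 294, 745 and 458 CPM in untreated libraries 1 to 5 and at 234, 346, 208, 277 and 274 CPM in LPS libraries 6 to 10. Untreated 4 was the highest, and untreated 3 (294) lay below LPS 7 (346), so the groups overlapped. Means were 497 ± 163 and 268 ± 52.4 CPM (SD, n = 5 each). On the log2 scale Lars2 fell by 0.89 ± 0.20 (SE), with an edgeR adjusted p of 0.0229. With single libraries left out the call was lost without LPS 8 (adjusted p = 0.0520) or LPS 9 (0.0581), and limma-voom with sample quality weights gave -0.72 (adjusted p = 0.0616).

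Lars2 moved with another gene across the libraries. ENSMUSG00000119584, which has no symbol in the tables used here, stood at 6816, 5808, 3622, 9431 and 5526 CPM in untreated and at 3001, 4233, 2235, 3322 and 3201 CPM in LPS libraries. The order of the 10 libraries was the same as for Lars2. That gene was itself called lower in LPS (log2 fold change -0.96 ± 0.22 SE; edgeR adjusted p = 0.0234). For each 100 counts of it there were 7.71, 7.98, 8.12, 7.90 and 8.29 counts of Lars2 in untreated libraries and 7.80, 8.17, 9.29, 8.34 and 8.56 in LPS libraries. This quotient averaged 8.00 ± 0.219 and 8.43 ± 0.555 (SD, n = 5 each) with overlapping groups, while Lars2 itself ran from 208 CPM in LPS 8 to 745 CPM in untreated 4.

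On the log2 CPM scale the relation had a Pearson r of 0.995 and a Spearman rho of 1 over the 10 libraries (permutation p = 1e-05 each, the smallest that 100000 permutations give; 1 relation was computed). Without untreated 4 and LPS 8, the libraries farthest from the median of ENSMUSG00000119584, r was 0.994 (permutation p = 4e-05) over 8 libraries. There rho was 1 (permutation p = 5e-05), which the rho of 1 over all 10 libraries had set in advance. The gene was chosen from earlier results of these data, and both groups are pooled in these values. With log2 CPM of ENSMUSG00000119584 as a covariate, the value of Lars2 was -0.01 ± 0.09 (SE) on the log2 scale, at an edgeR adjusted p of 0.996. Since the covariate follows Lars2 so closely, a value near 0 was set in advance. It therefore cannot tell whether LPS changed Lars2. The covariate itself differs between the groups, and 165 genes were called in that fit against 601 without it. In the same fit Wars stood at 0.30 ± 0.10 (SE; edgeR adjusted p = 0.336), a value no smaller than without the covariate but with a larger SE. The annotation used here does not list ENSMUSG00000119584, so its position relative to Lars2 was not examined, and what the reads of both genes share was not tested.

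**Figure D5:**
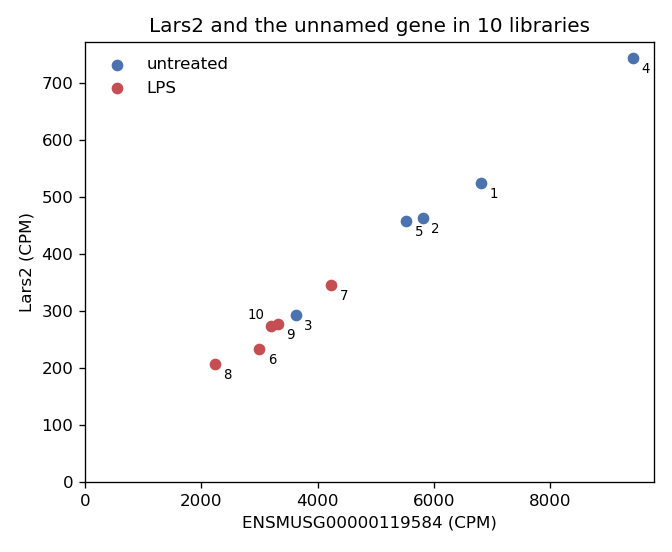
CPM of Lars2 (vertical axis) against CPM of ENSMUSG00000119584 (horizontal axis) in the 10 libraries, each point 1 library with its number, untreated in blue and LPS in red. The points lie close to 1 line through both groups, from LPS 8 (208 and 2235) to untreated 4 (745 and 9431), with untreated 3 among the LPS libraries.

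Genes next to the synthetases in translation were given by lists. The scaffold genes of the multisynthetase complex, Aimp1 (log2 fold change 0.07), Aimp2 (0.29; edgeR adjusted p = 0.343) and Eef1e1 (0.17), gave 0 calls of 3, 0 at an unadjusted p under 0.05 and 0 in DESeq2 and limma-voom. Of 12 other genes of aminoacylation and proofreading none was called by edgeR, DESeq2 or limma-voom or had an unadjusted p under 0.05, with a median of -0.02. The 2 most abundant of these were Sepsecs (-0.14), an enzyme of selenocysteine tRNA, and Ankrd16 (-0.06), a partner of the alanine enzyme. Of 19 cytosolic elongation and initiation factors none was called by these tools or had an unadjusted p under 0.05 (median 0.05), with Eef1a1, which delivers loaded tRNA to the ribosome, at 0.0024 and the translocation factor Eef2 at 0.036. Of 24 mitochondrial translation and tRNA processing factors none was called by edgeR, DESeq2 or limma-voom (median -0.01), 1 had an unadjusted p under 0.05, and 1 was called by limma-voom with sample quality weights and by edgeR without untreated 5. Guf1 (-0.18) and Gfm2 (0.02), both mitochondrial translation factors, were its most abundant members.

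Of 34 genes of the integrated stress response and ATF4 targets other than synthetases, 33 were tested and 4 rose, or 12.1% against 2.84% of all genes, with none lower, 31 above 0 and a median of 0.14. Trib3, a pseudokinase induced by ATF4, stood at 135, 107, 122, 134 and 154 CPM in untreated and at 204, 185, 169, 167 and 189 CPM in LPS libraries. The groups did not overlap, and it rose by 0.49 ± 0.09 on the log2 scale (SE; edgeR adjusted p = 0.00871), a call that held with each library left out but not with the covariate (0.57; adjusted p = 0.134). Slc7a11, a cystine transporter, rose from a mean of 3.18 to 5.73 CPM (0.85; adjusted p = 0.0213). Cebpb, a partner of ATF4, stood at 29.5, 20.6, 31.5, 24.5 and 57.7 CPM against 70.3, 64.2, 54.7, 51.3 and 58.1 CPM and rose by 0.87 (adjusted p = 0.0457), with untreated 5 inside the LPS range. Gpt2, an alanine transaminase named after its value was seen, rose by 0.36 (adjusted p = 0.0499). Atf4 itself (0.03; adjusted p = 0.931) and Asns, the asparagine synthetase (0.11; adjusted p = 0.366), both named after their values were seen, did not pass. The count of 4 was 1 without untreated 3, LPS 6 or LPS 7, 2 without untreated 2, LPS 9 or LPS 10, 7 with DESeq2 or with sample quality weights, and 1 with the covariate. The calls of Slc7a11, Cebpb and Gpt2 held in 7, 1 and 2 of the 10 fits with a library left out.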

How the data were processed

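The deposited values were whole-number read counts per Ensembl gene, 1 table per library, made by the authors with FastQC, Trimmomatic, STAR, SAMtools and HTSeq against GRCm39, per the submitters' processing notes, which also name DESeq2. For their versions, the annotation release and the strand setting, no source used here gives a value. Summary lines without a gene entered neither library sizes nor tests, with reads outside genes at 8.84% to 12.9%, ambiguous reads at 1.40% to 1.61% and reads with several alignments at 4.89% to 6.10%. Depth was 18465188 to 27379892 counts per library. All pairs of libraries in a group differed by more than sampling noise (chi-square per gene at least 6.14).

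Of 56748 identifiers, 52073 matched a symbol in GENCODE vM21 or RefSeq tables. Since that annotation is of GRCm38, it served for names, coding and exon lengths and overlaps only. Genes were filtered with filterByExpr (minimum count 10, total 15), scaled by TMM and tested with edgeR 4.0.16 (quasi-likelihood F test, no covariate, R 4.3.3), adjusted by Benjamini-Hochberg over 15942 genes, and called under 0.05. SEs come from the fold change and its test statistic. The 95% intervals combine that SE with the residual degrees of freedom of the 10 libraries alone, whereas the test also draws on the spread of other genes. An interval can therefore be wider than the p-value of the test implies. In simulated counts, 100 genes were changed by 0.5 in log2 and 100 by 1. Among those that passed the filter, the edgeR fit recovered 49.0% and 66.3%, with 7 false calls. Changed genes that the filter removed did not enter these shares. Smaller changes were not simulated, so a gene that was not called is not shown to be unchanged. Alternatives were DESeq2 1.42.0, limma 3.58.1 voom with and without sample quality weights, other scalings and filters, a covariate and each library left out. The correlation was tested with 100000 permutations. Plots came from matplotlib 3.10.9 and tables from pandas 2.3.3, under Python 3.11.15.

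The members, lists, motifs, alternatives and marker genes were chosen with earlier results of these data known. Values in every library are given for called members, for Wars, Lars2, Gars, Kars and Eprs, for the largest and smallest fold change and the most abundant gene of each compartment, and, outside that rule, for Nars, Aars and Tars because their groups did not overlap. Of each pathway list, up to 3 called genes with the smallest adjusted p, or else the 2 most abundant, were named. The values of 1 mitochondrial gene entered all fits, counts and sums but are not reported here. The promoter of Lars2 held no searched motif and that of Wars was not searched, so the 30-base sites lie outside the rule. Scalings of the summed CPM and of the relation of Lars2 were added after seeing the data.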

Additional observations from a re-analysis of the deposited data

Results flagged for a closer look

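Nars in LPS 6 stood at 228.652 CPM, while the other 4 LPS libraries lay between 194.693 and 197.31 CPM, so that its gap to the nearest of them made up 0.923 of the range of the group (Dixon's critical value 0.71). Chance sets a library apart in about 1 in 20 groups, and 78 groups of 5 libraries were examined. Without LPS 6 the log2 fold change of Nars was 0.15 (edgeR adjusted p = 0.176), against 0.20 (0.0905) with all libraries.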

How the results depend on the processing

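Counts of called genes moved with the tool and with the covariate. Over all genes, DESeq2 called 976, voom with quality weights 994 and the fit with ENSMUSG00000119584 as a covariate 165 (601 as reported), and 401 to 624 were called with a library left out. Cytosolic synthetases called numbered 4 with DESeq2, 3 with quality weights and 0 with the covariate, with no filter on low counts (Wars adjusted p = 0.0722) or with upper-quartile factors (0.0811), and 0 to 1 with a library left out. Mitochondrial synthetases called numbered 0 with the covariate or quality weights, and 0 to 1 with a library left out. With the covariate the loss of Lars2 was set in advance by its close relation to ENSMUSG00000119584. The summed cytosolic ratio and the relation of Lars2 with ENSMUSG00000119584 moved little, from 1.07 to 1.09 and from 0.992 to 0.997 with a library left out. Of the 36 synthetases reported singly, 21 kept their sign under all 18 alternatives and 15, all with a log2 fold change of 0.073 or less in size, did not. With the covariate, Dars (0.069), Fars2 (0.025), Rars2 (0.059) and Wars2 (0.030) turned positive, and Eprs (-0.034), Farsa (-0.074), Mars (-0.036), Vars (-0.016), Aars2 (-0.026), Mars2 (-0.072) and Aimp1 (-0.032) negative. With quality weights, Cars2 (0.065), Fars2 (0.029) and Tars2 (0.060) turned positive, and Eprs (-0.030), Mars2 (-0.0048) and Eef1a1 (-0.015) negative. Eprs and Eef1a1 also changed sign with a 1 CPM filter (-0.0045 and -0.0050) and upper-quartile factors (-0.012 and -0.011), Eprs with limma-voom (-0.0043) and Wars2 with no filter (0.00051). With a library left out, signs changed for Aars2 (-0.047 to 0.12), Cars (-0.0089 to 0.062), Cars2 (-0.11 to 0.12), Eprs (-0.058 to 0.060), Fars2 (-0.10 to 0.020), Mars2 (-0.0015 to 0.099), Rars2 (-0.11 to 0.013), Sars2 (-0.021 to 0.14), Tars2 (-0.051 to 0.069), Vars2 (-0.13 to 0.0025), Wars2 (-0.061 to 0.028), Ankrd16 (-0.15 to 0.022), Atf4 (-0.026 to 0.071), Gfm2 (-0.011 to 0.062), Eef1a1 (-0.038 to 0.036) and Eef2 (-0.0050 to 0.055). The number of mitochondrial genes above 0 was 8 without LPS 6 or LPS 7 and 3 without LPS 9, against 5. The causes were not tested. No paired analysis was made, because the labels number untreated libraries 1 to 5 and LPS libraries 6 to 10 and tie none to another. The numbering does not exclude a pairing by position, which was not tested. The share of counts from mitochondrially encoded genes was 2.00% in untreated 1 and 3.22% in untreated 5. It was 1.73% in LPS 6 and 2.88% in LPS 10. Any order shared by the groups was left in the SEs of these fits. The lowest synthetase, Pars2, had 82 counts in 1 library and an SE of 0.17. Cars2, with 551 to 1385 counts, also had an SE of 0.17, and Lars2, with 4370 to 17315 counts, had 0.20. The part of low counts in the spread of mitochondrial genes was not tested.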
